A study of Mus musculus with 6 samples.

Results

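The 9 genes described here encode transcription factors that pattern the midbrain and hindbrain: Gbx2, the engrailed genes En1 and En2, Pax5 and Pax8, the Iroquois genes Irx2, Irx3 and Irx5, and the zinc finger gene Egr2. They were taken by name from the platform's annotation, as the probe sets that carry exactly 1 of these symbols. All 9 genes were measured, by 12 of the 45101 probe sets on the array, and they are 9 of 18193 genes in all. Pax5, Pax8 and Egr2 had 2 probe sets each and the other 6 genes had 1. The cells came from OLV2-1, embryonic stem cells of the mouse that carry Venus as a knock-in at Oct4, so every group carried the reporter and every group was sorted for Venus. Undifferentiated cells (ESC) had not entered differentiation culture, and the sorting protocol adds CD31 (Pecam1) as a positive gate for them. EpiSC-like cells, named after epiblast stem cells, were sorted as Venus-positive and Pecam1-negative from aggregates on day 3 of SFEBq, a floating culture without serum in which stem cells turn neural. Day 7 cells (Day7_Oct4-Venus+) were the Venus-positive cells of such aggregates after 7 days, with no Pecam1 gate named, and 2 arrays were run per group. All of this rests on a single cell line, and the labels do not say whether both arrays of a group stem from independent cultures. P-values here therefore measure only the spread between these samples. A sort for Oct4 also leaves out the cells that had already lost the reporter, so day 7 is not a picture of the whole aggregate.

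As background, the border between midbrain and hindbrain forms where Otx2, expressed in front of it, meets Gbx2, expressed behind it, and each represses the other. The isthmic organizer at that border secretes Fgf8 and Wnt1, and the engrailed genes and the paired-box genes Pax2, Pax5 and Pax8 act around it to specify midbrain and anterior hindbrain. Iroquois genes mark neural plate behind the forebrain, and Egr2, also called Krox20, is needed for the odd-numbered rhombomeres of the hindbrain. Several of the factors work elsewhere too: Gbx2 is a target of LIF signalling in embryonic stem cells, Pax8 is needed in thyroid and kidney, Pax5 in B cells and Egr2 in Schwann cells.

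The arrays report a linear signal in intensity units, with a trimmed mean (2% at each end) of 500.003 to 500.004 on every array, and the median probe set read 63.9 to 76.2. The arrays numbered 1 and those numbered 2 formed sets, with top signals of 30793 to 36841 on the first set and 63296 to 66643 on the second. Differences are therefore also given within each set. Naive stem cell markers (6 genes) summed to 49896 and 62978 in ESC, 20754 and 14669 in EpiSC-like cells and 31508 and 35231 at day 7. Epiblast markers (5 genes) summed to 12794 and 9821 in ESC, 29833 and 34059 in EpiSC-like cells and 16944 and 12858 at day 7. By these sums, EpiSC-like cells were the lowest in naive and the highest in epiblast markers, and day 7 cells lay between the other groups in naive markers. Dnmt3b made up most of the epiblast sum, with 10402 and 7148 in ESC, 17818 and 22681 in EpiSC-like cells and 10850 and 7356 at day 7. Fgf5, Pou3f1 and Sall2 also peaked in EpiSC-like cells but lay above ESC at day 7, Fgf5 with 409 and 215 against 26.2 and 25.9. Otx2 showed no such peak. It read 2002 and 2466 in ESC, 3848 and 3827 in EpiSC-like cells and 3972 and 4509 at day 7. Neural progenitor markers (5 genes) summed to 384 and 388 in ESC, 1617 and 2032 in EpiSC-like cells and 1483 and 2267 at day 7. Fabp7 held the largest part of the later sums, with 25.9 and 8.49 in ESC, 702 and 797 in EpiSC-like cells and 666 and 1511 at day 7. Sox1, Zic1 and Nes also lay above ESC on every later array. Pax6 lay above ESC at day 3 but below it at day 7, with 171 and 184 against 189 and 213 in ESC. One day 7 array stood apart in other cell types' markers: 6 endoderm genes summed to 487 and 2912 at day 7 against 248 and 149 in ESC, and 5 neuronal genes to 1201 and 2946 against 1394 and 1095, with replicate 2 the higher one in both.

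Irx3, Irx5 and Gbx2 were the only members that passed in any comparison. Irx3 and Irx5 were higher than in ESC both in EpiSC-like cells and at day 7. Gbx2 was higher in EpiSC-like cells than in ESC, and its day 7 signals were the lowest of the 6 arrays. The engrailed genes, the paired-box genes, Irx2 and Egr2 passed in no comparison. Calls used limma and a p adjusted by Benjamini-Hochberg over all 18193 genes, with a threshold of 0.05, on log2(signal + 16), a scale that understates the change of dim genes. In these sorted bulk samples, fewer cells that express a gene and less RNA per cell cannot be told apart.

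**Figure D1:**
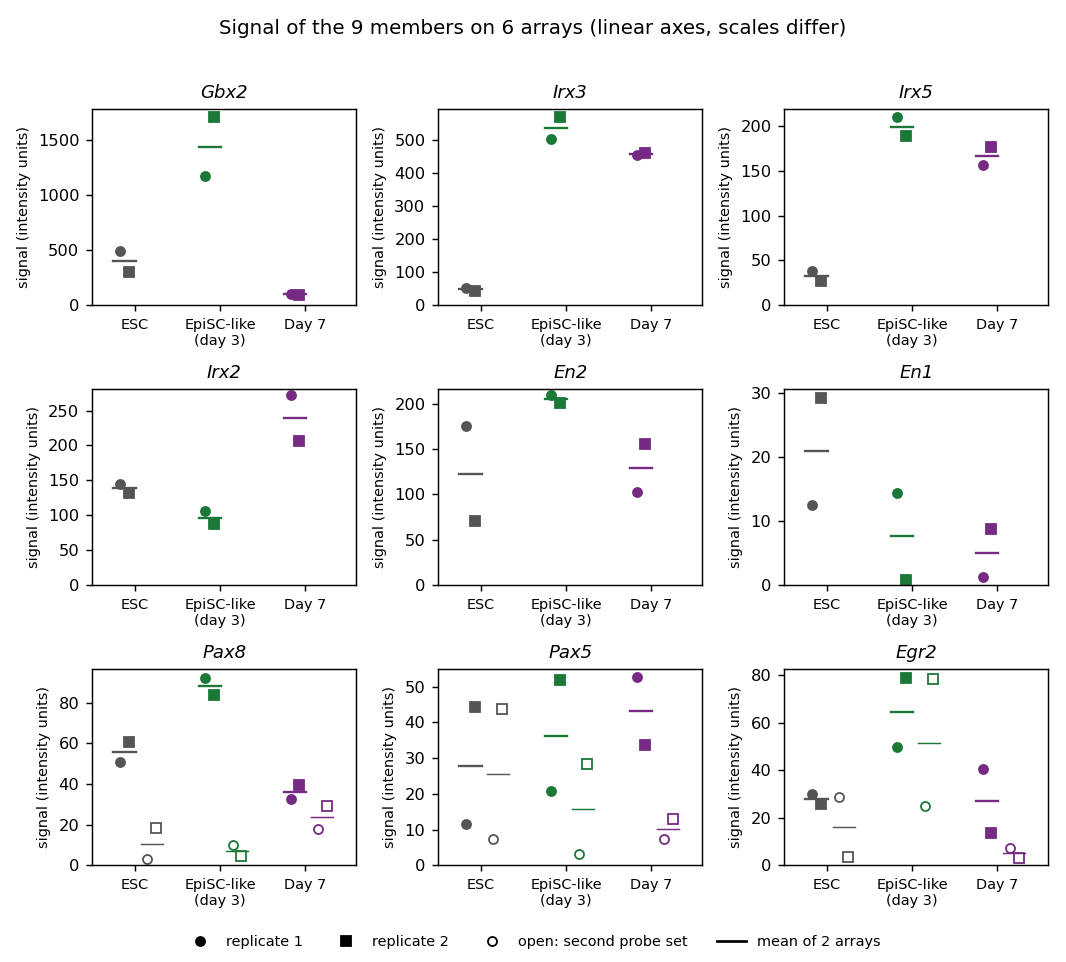
Signal in intensity units (linear y axes that start at 0 and differ between panels) of each member on the 6 arrays, by group; circles are replicate 1, squares replicate 2, horizontal lines the mean of 2 arrays, and open symbols the second probe set of Pax8, Pax5 and Egr2. Irx3 and Irx5 are high at day 3 and day 7, while Gbx2 peaks at day 3 with 1173 and 1707 and lies at 102 and 93.3 at day 7.

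Irx3 (NCBI gene 16373) is an Iroquois homeobox gene of the early neural plate. Its signal was 52.0 and 43.6 on the ESC arrays, 502.8 and 567.9 on the EpiSC-like arrays and 455.0 and 460.1 on the day 7 arrays. The ESC values lay below the median probe set of their arrays, and no array of either later group came near them. EpiSC-like cells averaged 535 ± 46.0 and ESC 47.8 ± 6.0 (SD, n = 2 each). No detection calls were used, so whether the ESC signals of Irx3 and Irx5 lay above background is not known, and no fold is given for these genes. The log2 difference was 3.11 ± 0.22 (SE), and 2.93 and 3.29 in the 2 sets of arrays (limma adjusted p = 0.0147). Of the 18193 genes, it ranked 48 by the size of the difference in either direction. Day 7 cells averaged 458 ± 3.61, with a log2 difference from ESC of 2.89 ± 0.22, and 2.79 and 3.00 in the sets (adjusted p = 0.0231). Between day 7 and EpiSC-like cells it differed by -0.22 ± 0.22 (95% interval -0.76 to 0.32, adjusted p = 0.727). Day 7 values were the lower ones on both sets, and the interval spans 0.

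Irx5 (NCBI gene 54352), the gene next to Irx3 on the chromosome, followed the same course. Its signal was 38.7 and 27.3 in ESC, 211 and 189 in EpiSC-like cells, and 157 and 177 at day 7. The ESC arrays did not overlap with any other array. EpiSC-like cells averaged 200 ± 15.6 and ESC 33.0 ± 8.05 (SD, n = 2 each), the ESC arrays again below their median probe set. The log2 difference was 2.14 ± 0.24, and 2.05 and 2.24 in the sets (limma adjusted p = 0.0210). For day 7 against ESC the log2 difference was 1.91 ± 0.24, with 1.66 and 2.15 in the sets (adjusted p = 0.0356). Day 7 and EpiSC-like cells differed by -0.24 ± 0.24 (95% interval -0.81 to 0.34, adjusted p = 0.720). Across the 6 arrays log2 values of Irx3 and Irx5 correlated with r = 0.993, a description over arrays that fall into 3 groups.

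Irx2 (NCBI gene 16372) belongs to the other Iroquois cluster, between Irx1 and Irx4, and ran a different course. It read 145 and 133 in ESC, 106 and 86.9 in EpiSC-like cells and 272 and 207 at day 7. Day 7 arrays were the highest and EpiSC-like arrays the lowest, with no overlap between groups, but no comparison passed. The log2 difference of day 7 against EpiSC-like cells was 1.18 ± 0.25, and 1.24 and 1.11 in the sets (95% interval 0.58 to 1.77, limma adjusted p = 0.125). That of day 7 against ESC was 0.71 ± 0.25 (adjusted p = 0.206), and that of EpiSC-like cells against ESC was -0.46 ± 0.25 (adjusted p = 0.442). Its correlation with Irx3 over the 6 arrays was 0.0555, again only a description.

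Of the Iroquois genes outside the 9, Irx6, which lies beyond Irx5 in the same cluster, read 80.9 and 51.5 in ESC, 42.5 and 80.2 in EpiSC-like cells and 52.5 and 55.6 at day 7. Its log2 difference from ESC was -0.11 ± 0.33 in EpiSC-like cells and -0.21 ± 0.33 at day 7 (limma adjusted p = 0.922 and 0.784). Irx1 and Irx4 did not pass either, with log2 differences from ESC of 0.20 and 0.06 in EpiSC-like cells and 0.92 and 0.22 at day 7. Of these 3 genes, 0 had an unadjusted p under 0.05 in any comparison, and all were at 80.9 intensity units or below on every array. Over all 18193 genes, 2903, 3338 and 2573 had such a p in EpiSC-like cells against ESC, day 7 against ESC and day 7 against EpiSC-like cells.

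Gbx2 (NCBI gene 14472) encodes the homeodomain factor of the hindbrain side of the border. Its signal was 491 and 305 in ESC, 1173 and 1707 in EpiSC-like cells, and 102 and 93.3 at day 7. The 3 groups did not overlap: day 7 was lowest, ESC lay between and EpiSC-like cells were highest. EpiSC-like cells averaged 1440 ± 378 and ESC 398 ± 131 (SD, n = 2 each), a ratio of 3.62, and the log2 difference was 1.83 ± 0.32, with 1.23 and 2.42 in the sets (limma adjusted p = 0.0498, just under the threshold). Day 7 cells averaged 97.7 ± 6.25, and ESC were 4.07 times as high. That log2 difference of -1.83 ± 0.32, -2.10 and -1.55 in the sets, did not pass (adjusted p = 0.0593). EpiSC-like cells were 14.7 times as high as day 7 cells. The log2 difference of day 7 against EpiSC-like cells was -3.65 ± 0.32 (95% interval -4.42 to -2.89), with -3.33 and -3.98 in the sets. It was the sixth largest of all genes in that comparison, and its adjusted p of 0.0522 equals the smallest that any gene reached there.

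Stretches around the start sites of Irx3 and Gbx2, the members with the largest differences, are printed here because the 2 genes took different courses at day 7 and their promoters can be set side by side. They are RefSeq windows of GRCm38.p6, from 250 bases before to 50 after the annotated start, both on the minus strand and written 5′ to 3′, with CG dinucleotides in capitals. The Irx3 window is chr8:91801605-91801904 and the Gbx2 window chr1:89931127-89931426.
Irx3: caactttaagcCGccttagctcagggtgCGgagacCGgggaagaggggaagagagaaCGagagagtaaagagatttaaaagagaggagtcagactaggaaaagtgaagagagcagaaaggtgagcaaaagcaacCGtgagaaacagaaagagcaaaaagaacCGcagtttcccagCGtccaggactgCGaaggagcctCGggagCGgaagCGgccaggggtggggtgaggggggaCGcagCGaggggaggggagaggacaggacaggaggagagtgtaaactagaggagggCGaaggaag
Gbx2: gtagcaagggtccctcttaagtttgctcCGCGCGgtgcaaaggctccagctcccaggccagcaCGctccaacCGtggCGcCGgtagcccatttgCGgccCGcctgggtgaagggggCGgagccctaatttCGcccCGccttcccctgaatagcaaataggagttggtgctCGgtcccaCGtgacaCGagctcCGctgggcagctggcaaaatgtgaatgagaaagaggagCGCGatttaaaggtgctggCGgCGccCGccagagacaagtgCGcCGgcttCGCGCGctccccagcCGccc
The Gbx2 window holds 27 CG dinucleotides with a GC content of 64.7%, and the Irx3 window 14 with 56.0%. The median of all windows is 7 CG dinucleotides and 52.7%. Among members that passed nowhere, the En1 window held 23 CG dinucleotides, that of Pax5 23, Irx2 25 and Pax8 7, and the Egr2 windows held 16 to 32. Whether CG content goes with a gene's course was not tested. RefSeq windows were found for 7 of the 9 members, 11 windows in all. They were searched on both strands for 5 motifs: TAATCC (bound by bicoid-type homeodomains such as Otx2), TAATTA (many other homeodomains), CTTTGAT (TCF/LEF), AGGTCA (nuclear receptors) and ACATGT (Iroquois core). None of the 11 windows held any of these letters, while 7.06%, 5.29%, 3.73%, 16.3% and 5.28% of all windows did, in the same order. Several of the 11 windows belong to Egr2 and some of those overlap almost fully, so the 11 are not separate stretches. A missing match says only that these letters are not in the window.

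En2 (NCBI gene 13799), an engrailed gene of midbrain and cerebellum, read 175 and 71.0 in ESC, 210 and 201 in EpiSC-like cells, and 102 and 156 at day 7. The EpiSC-like arrays were the highest, but the ESC arrays lay far apart from each other. The log2 difference of EpiSC-like cells against ESC was 0.78 ± 0.41, and 0.24 and 1.32 in the sets (95% interval -0.20 to 1.76, limma adjusted p = 0.427). Day 7 against ESC gave 0.15 ± 0.41 (adjusted p = 0.887), with opposite signs in the sets, -0.69 and 0.98. En1 (NCBI gene 13798), its paralogue, read 12.5 and 29.3 in ESC, 14.5 and 0.769 in EpiSC-like cells, and 1.33 and 8.76 at day 7. Every array put En1 in the lowest 33.4% of probe sets, and its day 7 arrays lay below both ESC arrays while the EpiSC-like arrays overlapped with both groups. Its log2 differences from ESC were -0.67 ± 0.40 in EpiSC-like cells and -0.79 ± 0.40 at day 7 (adjusted p = 0.489 and 0.351).

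Pax8 (NCBI gene 18510) is a paired-box gene of the border, the thyroid and the kidney. Its brighter probe set read 50.9 and 60.8 in ESC, 92.4 and 83.9 in EpiSC-like cells, and 32.6 and 39.5 at day 7. The 3 groups did not overlap, in the same order as those of Gbx2. The log2 difference of day 7 against EpiSC-like cells was -1.0 ± 0.23, and -1.16 and -0.85 in the sets (95% interval -1.55 to -0.45, limma adjusted p = 0.141). Those against ESC were 0.54 ± 0.23 for EpiSC-like cells and -0.46 ± 0.23 for day 7 (adjusted p = 0.322 and 0.345). The second probe set read 2.84 to 29.2 and disagreed with it: its day 7 arrays, 18.0 and 29.2, were above its EpiSC-like arrays, 9.74 and 4.79. The other kidney and thyroid markers measured, Osr1, Lhx1 and Tg, read at most 66.6, 164 and 25.8. Wt1, the other one of the 4, stood at 69.2 and 2.78 in ESC, 995 and 979 in EpiSC-like cells and 120 and 55.5 at day 7. The 4 together summed to 99.9 and 92.0 in ESC, 1038 and 1003 in EpiSC-like cells and 217 and 276 at day 7. Wt1 was thus highest in EpiSC-like cells, as was the brighter Pax8 probe set and not the second one, and its part in the Pax8 values was not tested.

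Pax5 (NCBI gene 18507), the related gene of the border and of B cells, was dim and scattered. Its brighter probe set read 11.4 and 44.3 in ESC, 20.9 and 51.7 in EpiSC-like cells, and 52.5 and 33.5 at day 7. Every group overlapped every other, and the values lay below the median probe set on all 6 arrays. Its log2 differences from ESC were 0.30 ± 0.47 in EpiSC-like cells and 0.52 ± 0.47 at day 7 (limma adjusted p = 0.838 and 0.616). The second probe set read 3.23 to 43.7, and its log2 differences from ESC had the opposite sign, -0.36 ± 0.56 and -0.53 ± 0.56. The 5 B cell markers measured summed to 290 and 411 in ESC, 206 and 338 in EpiSC-like cells and 178 and 364 at day 7. Each later sum lay below the ESC sum of the same set, while Ebf1 alone read 110 and 121 in ESC, 133 and 167 in EpiSC-like cells and 53.1 and 190 at day 7.

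Egr2 (NCBI gene 13654) is both a rhombomere gene and an immediate early gene that cells induce on stimulation. Its brighter probe set read 30.1 and 25.9 in ESC, 49.9 and 79.1 in EpiSC-like cells, and 40.5 and 13.7 at day 7. EpiSC-like arrays were highest, and those of day 7 lay on both sides of ESC. The log2 difference of EpiSC-like cells against ESC was 0.85 ± 0.37, and 0.52 and 1.18 in the sets (95% interval -0.03 to 1.73, limma adjusted p = 0.332). The second probe set gave 1.08 ± 0.53, but -0.14 and 2.29 in the sets. Of 8 other immediate early genes 0 passed limma in any comparison, with 1, 2 and 0 at an unadjusted p under 0.05 in EpiSC-like cells against ESC, day 7 against ESC and day 7 against EpiSC-like cells. Of all 18193 genes, 2903, 3338 and 2573 had such a p, in the same order. Among the 8, 4 had a log2 difference above 0 in EpiSC-like cells against ESC, and 2 at day 7 against ESC. Jun was higher at day 3, with 305 and 157 in ESC, 529 and 738 in EpiSC-like cells and 341 and 485 at day 7. Egr1, another zinc finger gene of the Egr family, was lower. It read 5403 and 2330 in ESC, 2683 and 1814 in EpiSC-like cells and 1482 and 1180 at day 7. The 3 markers of neural crest and Schwann cells measured summed to 727 and 581 in ESC, 714 and 616 in EpiSC-like cells and 579 and 621 at day 7. Cells were not handled alike: ESC and day 3 aggregates were taken apart in trypsin with EDTA, followed by 1 hour of recovery and 45 minutes of antibody staining. Day 7 aggregates were taken apart in PBS with EDTA, for which no trypsin, recovery or staining is named. For every member, day 7 and that handling cannot be told apart.

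**Figure D2:**
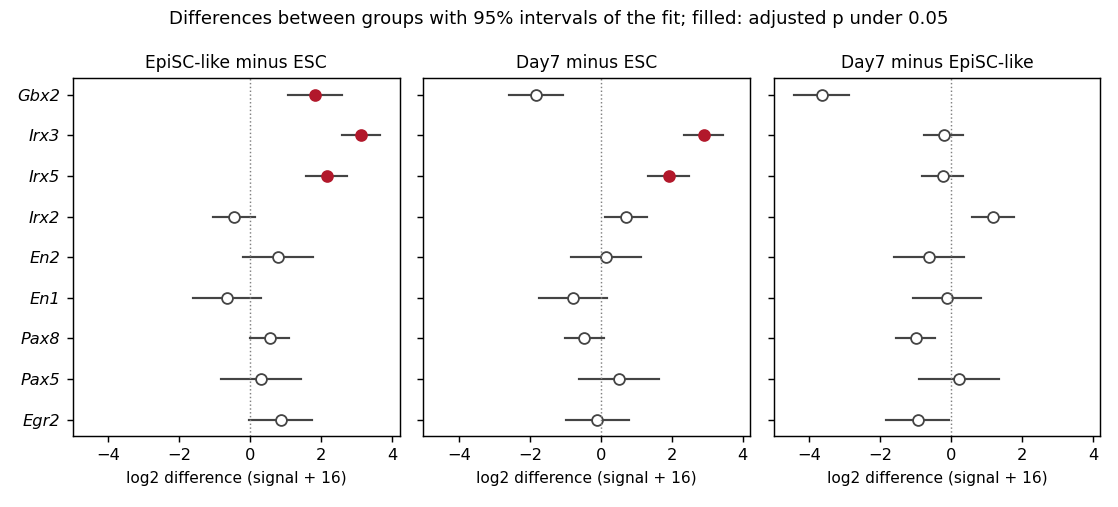
Log2 difference (x axis, signal plus 16) of each member in the 3 comparisons, with the 95% interval of the limma fit as a line; filled points had an adjusted p under 0.05. Irx3, Irx5 and Gbx2 are filled for EpiSC-like cells against ESC, Irx3 and Irx5 for day 7 against ESC, and none for day 7 against EpiSC-like cells, where Gbx2 stands at -3.65.

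Counted together, 3 of 9 members rose in EpiSC-like cells against ESC and 0 fell, beside 1.9% of all genes called in either direction, 1.33% called higher and 0.572% called lower. At day 7 against ESC, 2 of 9 rose and 0 fell, beside 1.05% called in either direction, 0.764% called higher and 0.286% called lower. Day 7 against EpiSC-like cells gave 0 calls among the members and 0% among all genes with limma, although 2573 genes, 4 of them members (Gbx2, Irx2, Pax8 and Egr2), had an unadjusted p under 0.05. The members' median log2 difference was 0.78, 0.15 and -0.24 in the 3 comparisons, beside 0.03, 0.02 and -0.02 over all genes. The first 2 comparisons share the ESC arrays. The groups' arrays did not overlap for 7, 6 and 7 of the 9 members, beside 44.8%, 50.2% and 45.9% of all genes. Within the 2 sets of arrays, 8, 6 and 7 of the 9 had the same sign. The share of all genes with the same sign was not counted, so this is only a description.

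Most of these calls, like most calls over all genes, were lost when 1 array was left out. Without an ESC or EpiSC-like array (or, at day 7, an ESC or day 7 array) a group has a lone array, which is then assumed to vary like the other groups, and fewer degrees of freedom remain. Irx3 in EpiSC-like cells against ESC passed without ESC replicate 1 (limma adjusted p = 0.0476) or either day 7 array (0.0382). It did not pass without ESC replicate 2 (0.118), EpiSC-like replicate 1 (0.0660) or EpiSC-like replicate 2 (0.131), with log2 differences of 3.02 to 3.21 in these fits. Irx5 and Gbx2 in that comparison lost their calls whichever array was left out (0.0530 to 0.140 and 0.0738 to 0.239), and so did Irx3 and Irx5 at day 7 (0.0628 to 0.172 and 0.0736 to 0.235). Without day 7 replicate 2, the day 7 differences from ESC were 2.89 for Irx3, 1.83 for Irx5 and -1.77 for Gbx2. That array had more endoderm and neuronal transcripts, and the 6 endoderm genes also summed higher on day 7 replicate 1 (487) than in ESC (248 and 149). The part of such transcripts in the day 7 values was not tested. With the set of arrays (the replicate number) as a block, 0 members and 0 of all 18193 genes passed. The limma adjusted p in EpiSC-like cells against ESC was 0.0526 for Irx3 and Irx5, the smallest that any gene reached. For Gbx2 it was 0.0841. At day 7 against ESC it was 0.0668 for Irx3 and Irx5, again the smallest of any gene. With a pseudocount of 1, or with the level of the poly-A spike controls as a block, 0 members and 0 genes passed limma in any of the 3 comparisons, while 2216 to 2957 genes (pseudocount of 1) and 2590 to 3472 genes (block) had an unadjusted p under 0.05. Centring the arrays on their median shifts all genes, moving the median of EpiSC-like cells against ESC to -0.13 and that of day 7 against ESC to -0.20. Gbx2 then missed the threshold in the first comparison (1.67, adjusted p = 0.0589), as it did with quantile normalization (1.71, 0.0582), with every probe set tested alone (0.0994) and with the 4 arrays of that comparison (0.106). In all, it passed there in 5 of 18 alternatives. Leaving out either day 7 array gives that comparison the same fit as its 4 arrays alone, so the 18 are not all separate fits. With centring Gbx2 passed at day 7 against ESC (-2.05, 0.0463) and against EpiSC-like cells (-3.72, 0.0402). The split of all calls was 184 higher and 149 lower in EpiSC-like cells with centring, against 242 and 104 without it. At day 7 against ESC it was 94 and 82, against 139 and 52.

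**Figure D3:**
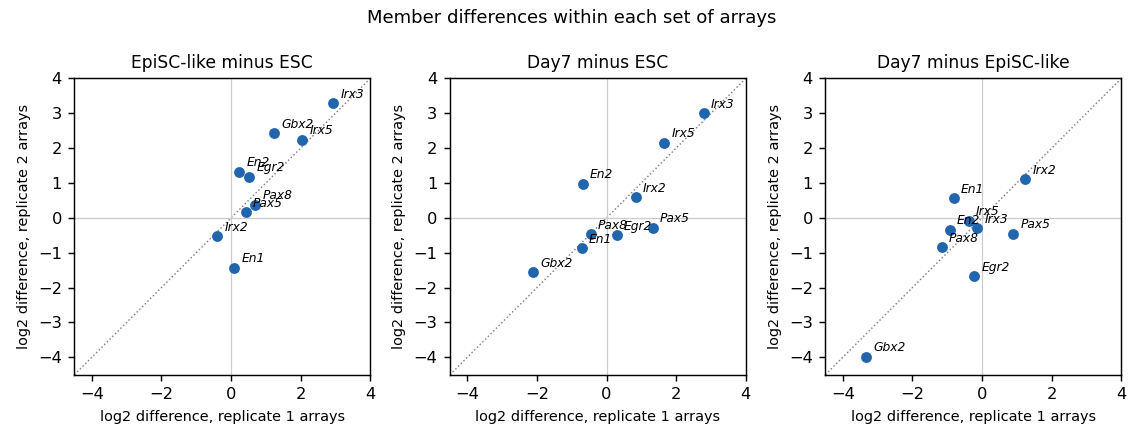
Log2 differences of the 9 members within the replicate 1 arrays (x axis) and within the replicate 2 arrays (y axis) for the 3 comparisons; the dotted line marks equal values. Irx3 and Irx5 lie near the line in all 3 panels, Gbx2 in the left panel stands at 1.23 and 2.42, and En1, En2, Pax5 and Egr2 have opposite signs in the sets in at least 1 panel.

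Other genes came from 7 lists of 55 genes, of which 49 were measured. Most lists concern midbrain and hindbrain patterning. The 49 also include 8 immediate early genes and 6 co-repressors and partners of engrailed and Pax proteins. Of the 49, 6 rose and 0 fell in EpiSC-like cells against ESC, with a median log2 difference of 0.06, where 1.9% of all genes were called. At day 7 against ESC 3 rose and 2 fell, with a median of 0.05, where 1.05% of all genes were called, and 0 passed between day 7 and EpiSC-like cells, where 13 had an unadjusted p under 0.05 beside 2573 of all 18193 genes. The 5 signals of the organizer did not pass, and 2 of them had such a p in each comparison with ESC. Of all 18193 genes, 2903 had such a p against ESC at day 3 and 3338 at day 7. Fgf8, its main signal, read 25.6 and 5.82 in ESC, 160 and 751 in EpiSC-like cells and 154 and 56.7 at day 7 (3.61 ± 0.76 against ESC at day 3, limma adjusted p = 0.0769). Its 2 EpiSC-like arrays lay far apart. Wnt1 read at most 28.4 on any array.

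Among 10 transcription factors of the organizer and midbrain, 3 rose in EpiSC-like cells against ESC: Meis2, a TALE homeobox gene (3.56 ± 0.31), Sp8, an Fgf8 regulator (2.77 ± 0.25), and Lmx1b, a LIM homeobox gene of the organizer (1.60 ± 0.23). At day 7 Meis2 (3.94 ± 0.31), Lmx1b (2.31 ± 0.23) and Pax3, a dorsal neural tube gene (2.36 ± 0.34), rose. Lmx1b stayed dim, with 2.45 and 5.11 in ESC, 41.0 and 46.5 in EpiSC-like cells and 75.3 and 89.6 at day 7. Otx2, the partner of Gbx2 at the border, read 2002 and 2466 in ESC, 3848 and 3827 in EpiSC-like cells and 3972 and 4509 at day 7. Its differences from ESC did not pass (0.78 ± 0.23 and 0.92 ± 0.23, limma adjusted p = 0.169 and 0.118), and between day 7 and EpiSC-like cells it stood at 0.14 ± 0.23, where Gbx2 stood at -3.65. Whether the 2 genes' differences differ from each other was not tested.

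FGF targets that act around the organizer gave 0 calls of 8 at day 3 against ESC. Of the 8, 4 had an unadjusted p under 0.05 there, beside 2903 of all 18193 genes. At day 7 against ESC 2 of them fell, the feedback inhibitors Spry4 (-3.76 ± 0.40) and Spry2 (-2.04 ± 0.24). Cnpy1, the gene beside En2, stood at -0.21 ± 0.30 and -0.18 ± 0.30 against ESC at day 3 and day 7 (limma adjusted p = 0.812 and 0.803). Of 9 hindbrain segmentation genes measured, Hoxb1 and Hoxb2 rose in EpiSC-like cells (5.35 ± 0.53 and 4.46 ± 0.48). Against ESC at day 7, 0 of the 9 passed and 4 had an unadjusted p under 0.05, beside 3338 of all 18193 genes. At day 7 Hoxb1 read 54.5 and 75.6, against 510 and 1544 in EpiSC-like cells, a log2 difference of -3.50 ± 0.53 that did not pass (adjusted p = 0.0867). The Egr2 co-repressors Nab1 and Nab2 did not pass either, with log2 differences of -0.74 to 0.31. Among 6 co-repressors and partners of engrailed and Pax proteins, Pbx3, a TALE cofactor of engrailed, rose in EpiSC-like cells (2.78 ± 0.37).

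**Figure D4:**
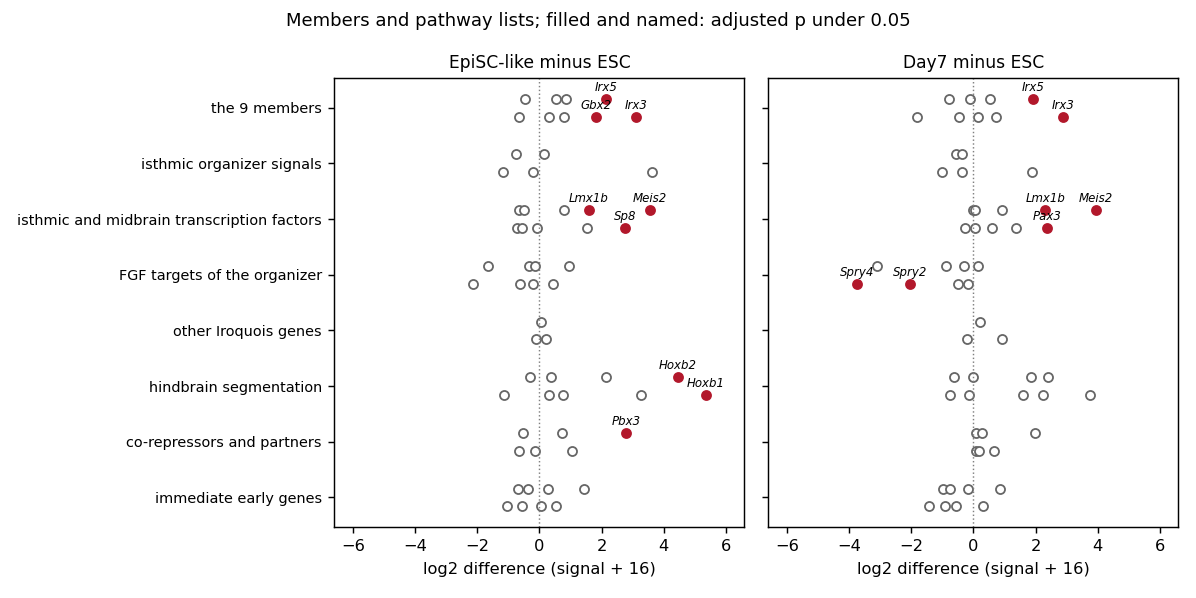
Log2 differences from ESC (x axis, signal plus 16) of the 9 members and of 49 other genes in 7 lists, at day 3 (left) and day 7 (right); each point is a gene, filled and named where its adjusted p was under 0.05, and the small vertical offsets only separate points. At day 3 the filled points all lie to the right of 0, and at day 7 the 2 filled points to the left are Spry4 and Spry2.

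The genes whose profile over the 6 arrays lay closest to each called member were found by Euclidean distance between log2 values centred on each gene's mean. For Irx3 they were Greb1l, the chemokine gene Cxcl12 and the kinase gene Stk39, at distances of 0.29, 0.64 and 0.69 (r = 0.997, 0.985 and 0.981 over 6 arrays). Greb1l had a mean signal of 188 on the ESC arrays, 1761 on the EpiSC-like arrays and 1530 on those of day 7. For Irx5 they were Hdgfl3, L3mbtl3 and the cyclin-dependent kinase gene Cdk14, at 0.084, 0.28 and 0.37 (r = 0.999, 0.993 and 0.988). For Gbx2 they were Myrf, a membrane-bound transcription factor gene known from myelination, the cytokine gene Tnfsf11 and Tafa4, at 1.08, 1.18 and 1.46 (r = 0.971, 0.959 and 0.923). Myrf had a mean signal of 795 on the ESC arrays, 1910 on the EpiSC-like arrays and 235 on those of day 7. These are descriptions over 6 arrays in 3 groups, and the arrays share the scaling.

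**Figure D5:**
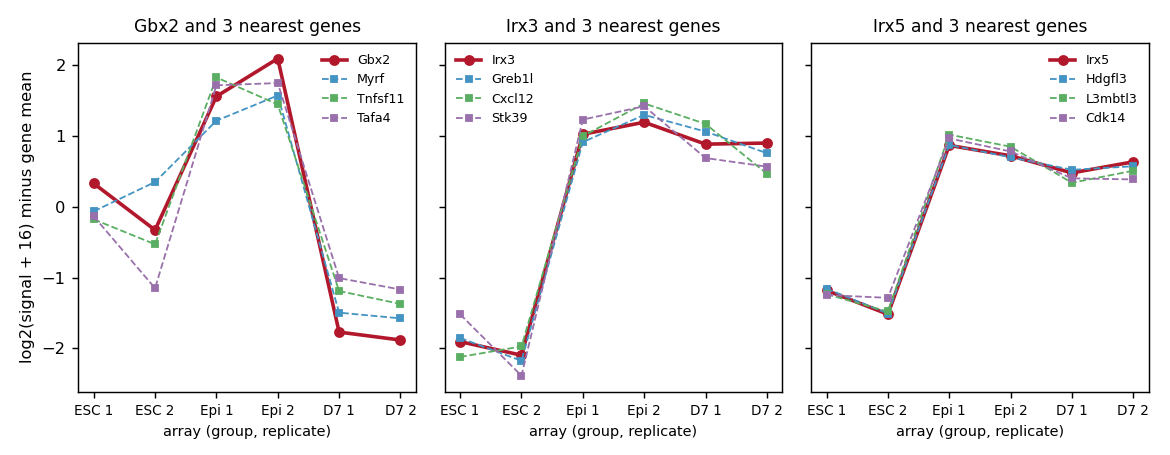
Log2(signal + 16) minus each gene's mean (y axis) on the 6 arrays (x axis: group and replicate, Epi for EpiSC-like and D7 for day 7) of Gbx2, Irx3 and Irx5, each with its 3 nearest genes as dashed lines. The Irx3 and Irx5 groups step up between ESC and day 3 and stay up, and Gbx2 lies below its ESC level on both day 7 arrays.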

How the data were processed

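RNA of 6 sorted samples was measured on Affymetrix 3' expression arrays, from 100 ng of total RNA each per the labels' protocols. The authors deposited a signal intensity on a linear scale for each probe set, made with Affymetrix Expression Console (version 1), per the submitters' processing notes, with the algorithm and genome build not given in the sources used here. Of 45101 probe sets, 64 controls were left out. The platform annotation gave 1 gene to 34945 of the others, several to 932 and none to 9160. Where a gene had several probe sets, the one brightest on average over the 6 arrays was used, which gave 18193 genes. Gene identifiers of the 12 member probe sets gave the same symbols in RefSeq (GRCm38.p6).

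Values of all 6 arrays as log2(signal + 16) were fitted in limma (3.58.1, under R 4.3.3) with 3 group means, and p-values were adjusted by Benjamini-Hochberg over all genes. The fit was tested on simulated data. There were 18 alternatives. In each comparison, leaving out an array of the third group gives the same fit as the 4 compared arrays alone. All members and lists, and the rule for named genes (all members, called list genes, the 3 nearest genes of called members), were chosen with earlier results of these data known. No detection calls were used, and the number of arrays limits the precision.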

Additional observations from a re-analysis of the deposited data

How the results depend on the processing

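The count of calls depended on most settings, and 5 members changed direction under at least 1 setting. In EpiSC-like cells against ESC, 346 genes and 3 members were called. These counts were 0 and 0 with the replicate number as a block, with the poly-A control level as a block and with a pseudocount of 1. They were 333 and 2 with median centring and 291 and 2 with quantile normalization. With a pseudocount of 64 they were 666 and 3, with genes below the 25th percentile of mean signal dropped 645 and 3, with those below the median dropped 748 and 2 (Gbx2 and Irx3, the members that were left), and with a trended prior 793 and 3. They were 129 and 2 with every probe set tested alone, 40 and 1 with only the 4 arrays compared, and 0 to 62 and 0 to 1 with an array left out. At day 7 against ESC, 191 genes and 2 members were called. The counts were 0 and 0 with either block, with a pseudocount of 1, with every probe set alone and with 4 arrays, and 0 to 3 and 0 to 0 with an array left out. They were 661 and 3, 518 and 3, 857 and 2, and 789 and 3 with a pseudocount of 64, the 2 filters and the trended prior, and in each of these 4 settings Gbx2 was called, lower at day 7. At day 7 against EpiSC-like cells the counts of 0 and 0 became 209 and 1 with a pseudocount of 64, 10 and 1 with median centring, 139 and 1 and 336 and 1 with the filters, 8 and 1 with the mean over probe sets, and 198 and 1 with the trended prior, the member again being Gbx2. Filters test fewer genes, and fits with fewer arrays have fewer degrees of freedom; the cause of the other shifts was not tested.

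Deviations from group means correlated between same-numbered arrays with r = 0.286 for ESC and EpiSC-like cells, 0.0772 for ESC and day 7 and 0.0942 for EpiSC-like cells and day 7, so the numbers were not taken as pairs throughout. ESC and EpiSC-like replicate 2 also shared a low poly-A control level (81.3 and 81.8, against 682 to 932 on the other 4 arrays). With the replicate block, the smallest adjusted p was 0.0526, 0.0668 and 0.125 in the 3 comparisons, and 3365, 3925 and 3057 genes had an unadjusted p under 0.05, against 2903, 3338 and 2573 without it.

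Directions of Irx2, Irx3, Irx5 and Gbx2 were the same under every alternative that kept them. Values that changed sign belonged to uncalled, mostly dim members. Pax5 in EpiSC-like cells against ESC turned to -0.0305 with the mean over probe sets, -0.27 without ESC replicate 1 and -0.14 without EpiSC-like replicate 2 (-0.27 to 0.86 with an array left out). Pax5 at day 7 turned to -0.0050 (mean over probe sets) and -0.0494 (without ESC replicate 1, range -0.0494 to 1.09) against ESC. Against EpiSC-like cells it turned to -0.22 and -0.0124 without EpiSC-like or day 7 replicate 1 (-0.22 to 0.66). En2 at day 7 against ESC turned to -0.15 with the poly-A block, -0.0720 with centring, -0.0456 with quantile normalization, and -0.42 and -0.12 without ESC or day 7 replicate 2 (-0.42 to 0.71). Pax8 turned to 0.0826 (mean over probe sets) and Egr2 to 0.36 (without day 7 replicate 2, range -0.57 to 0.36) in that comparison. En1 at day 7 against EpiSC-like cells turned to 0.31 and 0.13 without EpiSC-like or day 7 replicate 1 (-0.56 to 0.31). The cause of these changes was not tested.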

Other observations

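Some genes around the midbrain and hindbrain factors read very differently on the 2 day 7 arrays. Hoxb3, a hindbrain gene, read 146 and 1025 at day 7, against 253 and 308 in EpiSC-like cells. Cyp26a1, which encodes an enzyme that degrades retinoic acid, read 66.7 and 545 at day 7, against 22.3 and 105 in EpiSC-like cells. Dcx, a gene of young neurons, read 78.3 and 604 at day 7, against 16.9 and 19.6 in EpiSC-like cells. On the same 2 arrays Irx3 read 455.0 and 460.1 and Irx5 157 and 177.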
